A study of Mus musculus with 15 samples.

Results

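Genes that move calcium and carry ionic current in heart muscle cells were followed through acute rejection of a cardiac allograft. The 9 genes were Ryr2, Casq2, Atp2a2, Pln, Cacna1c, Slc8a1, Kcnj2, Kcnq1 and Gja1, taken by symbol with every probe that the array holds for them, which gave 9 of 32301 named genes and 16 of 41174 probes. Hearts from C57BL/10 (B10, H-2b) donors were placed in the abdomen of CBA (H-2k) recipients, where they do not carry the circulation, and 3 grafts were taken at post-operative day 5 (POD5). The heart controls were 3 arrays. For the liver, B10.BR (H-2k) donors were paired with B10.D2 (H-2d) recipients in the orthotopic position, with 3 grafts at POD5, 3 at POD8 and 3 controls. All mice were male, and no immunosuppressive drug is named for any group. The labels and methods call the controls normal, whereas the results text calls them syngeneic grafts, so that which of them they were stays unsettled, and the strain of the controls is not given. Each array measured total RNA of whole tissue, recipient cells included, and the study's methods give 3 mice per time point for its quantitative PCR, while the array labels number the samples without naming animals. P-values measure the spread between these samples.

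With each heartbeat, an action potential opens the L-type calcium channel, and the calcium that enters opens the ryanodine receptor of the sarcoplasmic reticulum, the calcium store of the muscle cell. Relaxation follows when a pump returns calcium to the store and an exchanger carries the rest out of the cell. Potassium channels return the membrane to rest, and gap junctions pass the impulse to the next cell. Lower levels of the store's pump and of repolarising potassium channels have been described in failing heart muscle.

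The 75th percentile of intensity was 362.7 to 652.3 on the heart allograft arrays and 938.4 to 1153.7 on the heart controls, and it was 87.7 to 452.0 in the liver. All 12 sarcomere genes of the cardiomyocyte list were well above background on all 6 heart arrays. All 3 heart allografts lay on 1 slide and all 3 heart controls on another, scanned separately. For the heart, a slide or scan effect and a group effect therefore cannot be told apart. In the liver, no POD5 graft shared a slide or scan with a control, so the same holds for that comparison. Liver POD8 grafts 1 and 2 lay on the same slide as liver controls 1 and 2. Heart control 2 stood apart in atrial and fat markers. Its Myl7, the atrial myosin light chain, read 6.32 on the log2 scale against 16.5 and 16.3 in controls 1 and 3, and its 5 adipocyte genes summed to 43.2 in intensity against 9714 and 621.7. This control also held the highest level of the 3 controls for 9 of the 9 genes. Among the grafts, allograft 1 held the highest level for 9 of the 9 genes and allograft 2 the lowest for 7. Whether the cut of tissue had a part in these orders was not tested.

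Of the 9 genes, 2 fell in the cardiac allografts and 0 rose at an adjusted P under 0.05 by limma. Those that fell were Pln, the inhibitor of the calcium store's pump, by 4.30-fold, and Ryr2, the ryanodine receptor, by 2.73-fold. Over all 32187 genes tested by their brightest probe, 15.1% were called lower and 15.2% higher, so the share of the 9 genes called is not far from that background. By position alone, 7 of the 9 genes had all 3 allografts below all 3 controls, against 24.3% of all genes lower and 29.8% higher in that sense. All 9 genes were well above background on all arrays of a heart group, as were 20676 of all genes. Of those 20676, 6624 lay lower and 5970 higher by position, and 4468 were called lower and 4238 higher by limma. The median log2 difference of the 9 genes was -0.80 (median of all genes 0.03). The count of 2 became 7 without allograft 1 and 1 (Pln) without allograft 3 or any 1 of the 3 controls. Over all genes, the 4863 called lower became 4255 without allograft 1 and 3070 without allograft 3. Without 1 of the controls, 2696 to 3337 of all genes were called lower. The 9 genes were chosen with earlier results of these arrays known, and the counts are a description.

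**Figure D1:**
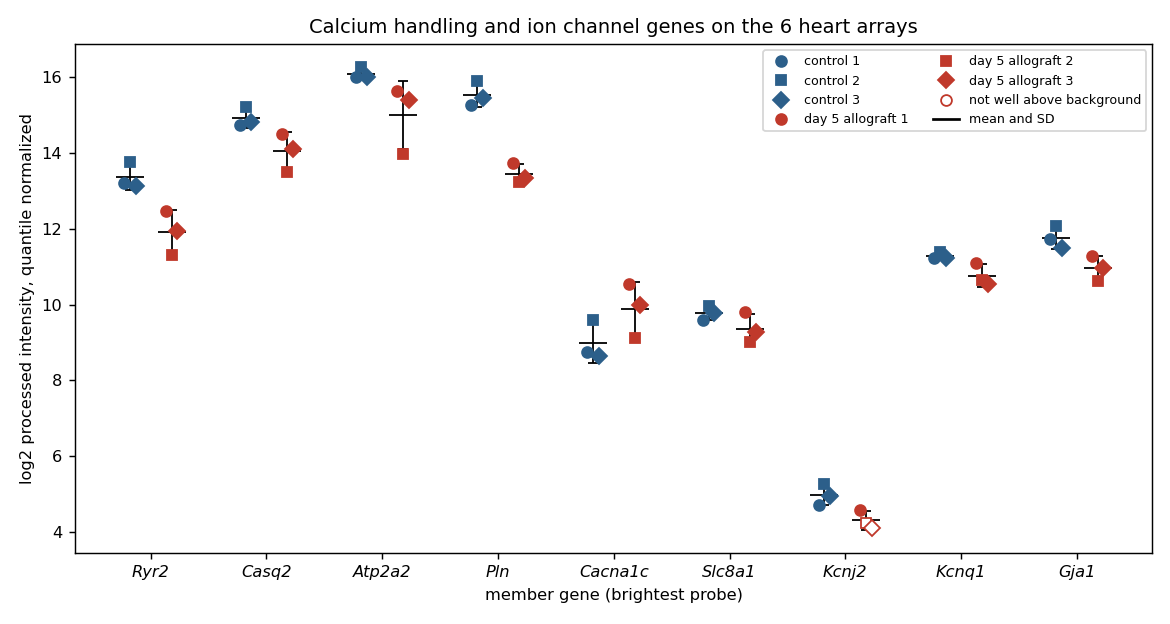
Log2 processed intensity (quantile normalized) of the brightest probe of each of the 9 genes on the 3 heart control arrays and the 3 POD5 cardiac allograft arrays; points are arrays, bars the mean and SD of 3. The allografts lie below every control for Ryr2, Casq2, Atp2a2, Pln, Kcnj2, Kcnq1 and Gja1, and the groups overlap for Cacna1c and Slc8a1.

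Ryr2 encodes the channel through which stored calcium leaves the sarcoplasmic reticulum (chr13:11553099-12106945, GRCm38.p6). Its brighter probe read 12.47, 11.32 and 11.95 in allografts 1 to 3 and 13.21, 13.75 and 13.12 in controls 1 to 3 on the log2 intensity scale. Every allograft lay below every control, with allograft 2 the lowest. The log2 difference was -1.45 (SE 0.34, 95% interval -2.31 to -0.58, adjusted P = 0.029 by limma). The dimmer Ryr2 probe gave -0.58 (SE 0.41, adjusted P = 0.34), and its groups overlapped, with allograft 1 at 7.62 and control 3 at 7.31. The 2 probes of the gene thus disagreed on whether the threshold was passed. The call of the brighter probe was also lost without allograft 3 (adjusted P = 0.081), control 1 (0.077), control 2 (0.088) or control 3 (0.070), while the difference stayed at -1.24 or below in each of these. In whole tissue, fewer muscle cells and less RNA per muscle cell cannot be told apart.

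Casq2 encodes calsequestrin, the protein that binds calcium inside the store (chr3:102086415-102146514). It read 14.52, 13.51 and 14.11 in the allografts and 14.75, 15.22 and 14.81 in the controls. No allograft reached a control, but allograft 1 lay below the lowest control by less than the range of the controls. Its log2 difference was -0.88 (SE 0.29), and it did not pass the test (adjusted P = 0.076).

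Pln encodes phospholamban, which slows the pump of the store until it is phosphorylated (chr10:53337686-53345999). It read 13.74, 13.22 and 13.34 in the allografts and 15.26, 15.91 and 15.46 in the controls. The gap between the highest allograft and the lowest control was wider than the range within either group. The difference came to a log2 value of -2.11 (SE 0.23, 95% interval -2.68 to -1.53, adjusted P = 0.0032 by limma). Pln was called lower with any 1 of the 6 arrays left out, at -2.27 to -1.93.

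The promoters of the genes that fell are shown because these were the members called, with fixed motifs in capitals, searched on both strands. These motifs were the TATA box as TATAAA, a core of the MEF2 motif as TATTTTTA, the GATA motif as TGATAA or as AGATAA, the E-box as CACGTG and the GC box as GGGCGG, none of which overlap in the stretches shown. Each run is the 250 bases before the start site in RefSeq's GRCm38.p6 table, read on the gene's strand, at chr10:53337436-53337685 (plus) for Pln and chr13:12106946-12107195 (minus) for Ryr2.
Pln: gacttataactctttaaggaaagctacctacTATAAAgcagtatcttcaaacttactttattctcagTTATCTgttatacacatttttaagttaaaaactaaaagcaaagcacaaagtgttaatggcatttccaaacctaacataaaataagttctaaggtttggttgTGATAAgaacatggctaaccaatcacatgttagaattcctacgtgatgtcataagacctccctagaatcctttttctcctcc
Ryr2: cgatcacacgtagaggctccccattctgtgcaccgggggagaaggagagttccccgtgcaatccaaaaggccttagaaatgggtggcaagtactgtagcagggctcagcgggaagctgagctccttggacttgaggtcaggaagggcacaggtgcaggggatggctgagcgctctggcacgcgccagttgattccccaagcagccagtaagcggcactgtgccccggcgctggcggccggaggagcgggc

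The Pln stretch held TATAAA at -219, TGATAA at -82 and AGATAA on the other strand at -183, counted from the start site. The Ryr2 stretch held none of the motifs, and its full window of 300 bases held GGGCGG on the other strand at 40 and 44 bases after the start. Pln was poor in G and C (32.8%) and Ryr2 rich (63.2%) over the 250 bases. Of the 32851 windows in the table, 13.6% held TATAAA, 9.05% TGATAA, 11.2% AGATAA, 2.72% TATTTTTA, 7.15% CACGTG and 35.7% GGGCGG. The table held windows for 7 of the 9 genes, and TATTTTTA was found in those of Casq2 (at -68) and Slc8a1 (at -182, where it shares bases with a TGATAA match at -177). Atp2a2 and Kcnq1 had no entry. A match describes the letters and shows no binding.

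Atp2a2 encodes SERCA2, the calcium pump of the store (chr5:122453513-122502225), and its 3 probes differed in outcome. The brightest, on transcript NM_009722, read 15.62, 13.97 and 15.39 in the allografts and 16.02, 16.27 and 16.00 in the controls. The allografts were all lower, but allograft 2 stood far below the other two. The log2 difference was -1.10 (SE 0.46, adjusted P = 0.13), not called. Without allograft 2 it was -0.58, now with an adjusted P of 0.032, so that leaving out that array made the difference smaller and let it pass the test. A dimmer probe on the same transcript gave -1.45 (SE 0.52, adjusted P = 0.092). The dimmest, on transcript NM_001110140, read 8.97, 8.07 and 8.92 against 10.18, 10.43 and 9.98. On this probe no allograft came near a control, and it passed the test at -1.54 (SE 0.29, adjusted P = 0.014), a 2.91-fold lower level. That call was lost without control 1 (adjusted P = 0.053) or control 2 (0.051).

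Cacna1c encodes the pore of the L-type channel through which calcium enters (chr6:118587240-119197384), and it was the member with a positive difference. Its brighter probe read 10.55, 9.12 and 10.00 in the allografts and 8.74, 9.60 and 8.64 in the controls. Allograft 2 lay below control 2, so the groups overlapped. On the log2 scale the difference was 0.89 (SE 0.45, 95% interval -0.25 to 2.04, adjusted P = 0.19). Its other probe gave 0.19 (SE 0.47, adjusted P = 0.80).

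Slc8a1 encodes the sodium-calcium exchanger, the main route by which calcium leaves the cell (chr17:81373105-81738387). Its brightest probe read 9.80, 9.03 and 9.28 in the allografts and 9.60, 9.96 and 9.79 in the controls. Allograft 1 lay above 2 of the controls. The log2 difference was -0.42 (SE 0.23, adjusted P = 0.22). The other 3 probes gave -1.18, -0.89 and -0.78, none called and all with overlapping groups, and on each of them allograft 2 was far below allografts 1 and 3. On the probe with -1.18, for example, the allografts read 9.21, 6.63 and 8.35.

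Kcnj2 encodes an inward rectifier channel that holds the resting potential (chr11:111066164-111076825). It was dim, and of the allografts allograft 1 alone was well above background. The allografts read 4.58, 4.25 and 4.10 and the controls 4.72, 5.26 and 4.96, with no overlap. The graft minus control value was -0.67 (SE 0.20, adjusted P = 0.054), just short of the threshold.

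Kcnq1 encodes the channel of the slow delayed rectifier current (chr7:143106877-143427050). It read 11.10, 10.64 and 10.55 in the allografts and 11.23, 11.38 and 11.23 in the controls. Allograft 1 came close to the controls and the other two did not. Its difference on the log2 scale was -0.52 (SE 0.17, adjusted P = 0.076), not called.

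Gja1 encodes connexin 43, the main gap junction protein of the ventricle (chr10:56377300-56390419). It was printed in 10 spots, averaged here, and read 11.29, 10.63 and 10.96 in the allografts and 11.72, 12.06 and 11.49 in the controls. The groups did not overlap, but the highest allograft and the lowest control were close. Its log2 difference was -0.80 (SE 0.23, adjusted P = 0.052), just short of the threshold.

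**Figure D2:**
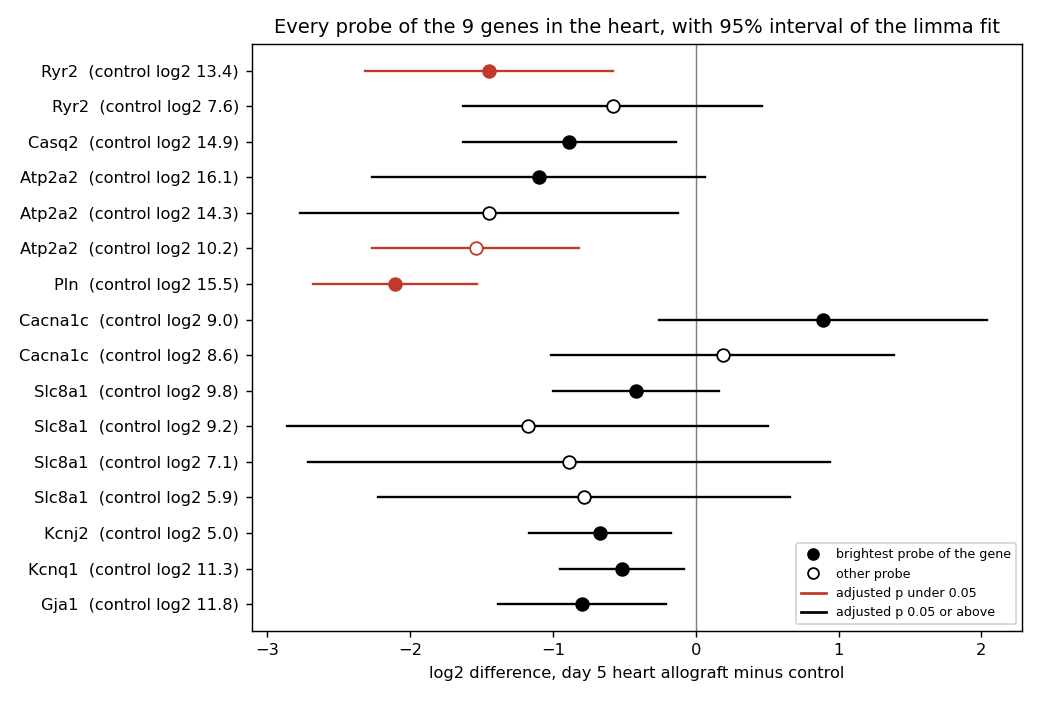
Log2 difference (POD5 cardiac allograft minus control) of all 16 probes of the 9 genes, with the 95% interval of the limma fit; filled points are the brightest probe of a gene and red marks an adjusted P under 0.05. The intervals of Pln, of the brighter Ryr2 probe and of the dimmest Atp2a2 probe lie well below 0, and those of the 4 Slc8a1 and 2 Cacna1c probes span it.

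The spread among the grafts was not the same for all 9 genes. Allograft 1 exceeded allograft 2 by 1.66 on the log2 scale for Atp2a2, 1.43 for Cacna1c, 1.15 for Ryr2 and 1.01 for Casq2. The gap was 0.52 for Pln, 0.46 for Kcnq1 and 0.32 for Kcnj2. The sarcomere list had a mean log2 level of 16.6, 15.8 and 16.3 in allografts 1 to 3 and 16.8, 17.0 and 16.7 in the controls, so that allograft 2 was lowest, as it was for 7 of the 9 genes but not for Kcnj2 and Kcnq1, where allograft 3 was. Allograft 2 was also the array of lowest signal in the heart, with 56.2% of its probes well above background.

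The scale on which the arrays were compared mattered for some members. The sarcomere list, a measure of muscle RNA, had 2 of 12 genes lower and 0 higher, with a median log2 difference of -0.59. Of all genes, 15.1% were lower and 15.2% higher. Its summed intensity was 1104400 to 1575300 in the allografts and 1676900 to 1949100 in the controls. Centring each array on the sarcomere list moved the median of all probes to 0.92, and calls over all 32187 genes became 1501 lower and 15906 higher in place of 4863 and 4879. On that scale Pln was still lower by limma at -1.64 (SE 0.31, adjusted P = 0.0021) and the brighter Ryr2 probe at -1.04 (SE 0.34, adjusted P = 0.024). The dimmer Ryr2 probe showed no difference there (-0.0091, SE 0.40, adjusted P = 0.99). The dimmest Atp2a2 probe gave -1.09 (adjusted P = 0.031). The brightest Atp2a2 probe, which represents the gene, was not called (-0.61, adjusted P = 0.18), nor was the remaining Atp2a2 probe (-1.04, adjusted P = 0.058). Cacna1c was among the many genes then called higher, at 1.32 (SE 0.40, adjusted P = 0.017). Kcnj2 (0.15), Slc8a1 (0.02), Gja1 (-0.38), Casq2 (-0.42) and Kcnq1 (-0.08) were not called and lay below the median of all probes, so that the positive sign of Kcnj2 and Slc8a1 went with the shift of the whole array. Scaling on the 75th percentile of each array moved the median of all probes to 0.47, with 4109 genes called lower and 13073 higher. Either of these scalings moves all probes of an array by the same amount. The median of the 9 genes relative to that of all probes is therefore the same under both by construction, at -1.3. Under quantile normalization the median was -0.80 for the 9 genes and 0.014 for all probes. With the 75th percentile Atp2a2, Casq2 and Gja1 joined Pln and Ryr2 as lower.

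**Figure D3:**
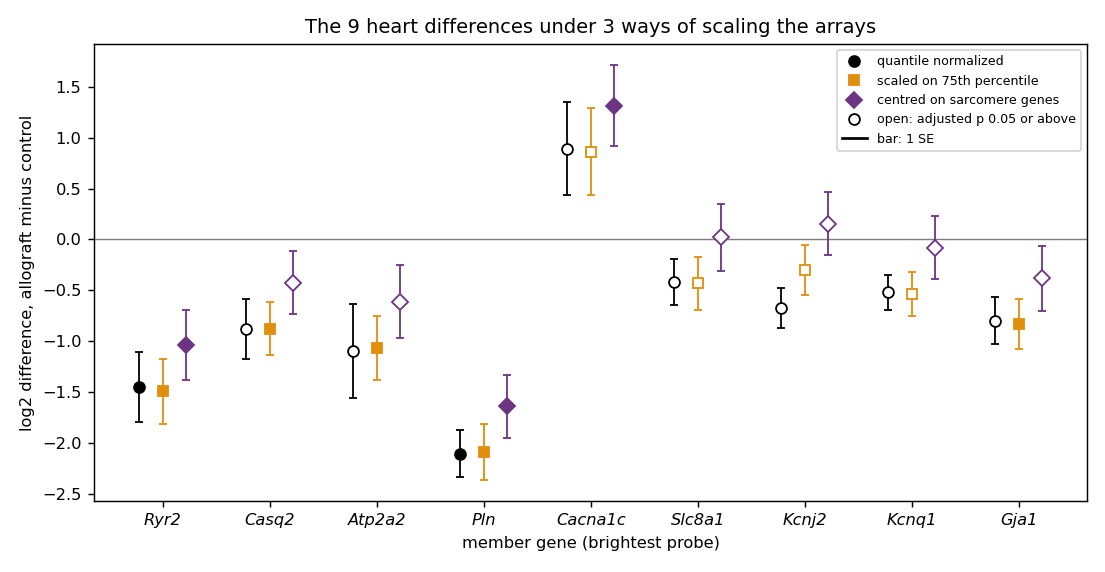
Log2 difference (POD5 cardiac allograft minus control, with 1 SE) of the brightest probe of each gene under 3 scalings of the same 6 arrays: quantile normalized, scaled on the 75th percentile, and centred on the sarcomere genes. Filled points have an adjusted P under 0.05; Pln and Ryr2 are filled under all 3, and Cacna1c is filled and above 0 when centred on the sarcomere genes, where the median of all probes is 0.92.

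Marker RNA of cells other than muscle also differed between the groups, while cell numbers were not measured. For the counts below, 15.1% of all genes were called lower and 15.2% higher. Leukocyte markers summed to 39748 to 58662 in intensity in the allografts and 11930 to 19273 in the controls, and 6 of 11 were higher and 0 lower, with Cd8a, the co-receptor of cytotoxic T cells, 61.0-fold higher. Endothelial markers were lower for 6 of 6 genes (summed 9204 to 9539 against 27495 to 33456). Fibroblast markers were lower for 4 of 7 (209090 to 277820 against 467960 to 670470) and smooth muscle markers for 4 of 6 (49527 to 61768 against 73743 to 102380). Of 8 hepatocyte markers, 1 to 3 were above background in an allograft and 3 or 4 in a control. Gja1, Slc8a1 and Cacna1c are also expressed outside heart muscle cells, and Atp2a2 and Kcnq1 were above background on every liver array. These shifts ran with the members' values between the same groups, and their part in the results was not tested.

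The other genes of the pathway were taken as 8 whole lists, with 98 genes tested and a median log2 difference of -0.60. Of these, 34 were lower and 11 higher, beside 15.1% of all genes lower and 15.2% higher. The potassium channel list stood at 16 of 21 lower and 0 higher, median -1.50, again beside 15.1% of all genes lower. Kcnv2, a silent subunit of voltage-gated channels, was at least 3.74-fold lower, since no allograft was well above background (allografts 1.89 to 2.86, controls 5.65 to 6.55 on the log2 scale). Kcnab1, an accessory subunit of the Shaker family, read 5.46, 5.26 and 5.36 in the allografts against 9.20, 8.23 and 8.94 in the controls, with a log2 difference of -3.43 (SE 0.27, adjusted P = 0.0015). Kcnd2, a pore of the transient outward current, read 8.58, 7.45 and 7.83 against 10.38, 10.84 and 10.21, a log2 difference of -2.53 (SE 0.34, adjusted P = 0.0058). In these 3 genes the allografts lay far below every control. Among those not called, Kcne1, the partner subunit of Kcnq1, had a log2 difference of -2.20 (SE 0.67, adjusted P = 0.059), and Kcne2 was not above background in either group. This pair was picked once the values were known. The count of 16 became 10 without allograft 3, and it was 11, with 1 gene higher, when the arrays were centred on the sarcomere list. Over all genes, 3070 were called lower without allograft 3, and 1501 lower and 15906 higher on the sarcomere scale.

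The calcium store list had 5 of 16 genes lower and 2 higher (median -0.51), beside 15.1% and 15.2% of all genes. Hrc, a calcium-binding protein of the store, read 12.92, 11.94 and 12.65 in the allografts and 14.75, 15.83 and 14.90 in the controls, a log2 difference of -2.66 (SE 0.40, adjusted P = 0.0076). Trdn, the protein that ties calsequestrin to the ryanodine receptor, fell by 1.54 on the log2 scale (adjusted P = 0.0077), and Dhrs7c, an enzyme of the store's membrane, fell by 2.53 (adjusted P = 0.012). The genes that rose were Jph1, a junctophilin known mainly from skeletal muscle (2.04, adjusted P = 0.0030), and Fkbp1a, a ryanodine receptor binding protein (1.0, adjusted P = 0.0036). Sln, a regulator of the pump found mostly in atrial muscle, could not be compared. It read 12.8, 14.0 and 13.8 in the allografts but 16.5, 4.03 and 16.5 in the controls, so that control 2 alone set the difference.

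Of 11 other calcium channel genes, 2 fell and 2 rose (median -0.17), shares near those of all genes (15.1% lower and 15.2% higher). The T-type pores Cacna1g (-2.26, adjusted P = 0.031) and Cacna1h (-2.05, adjusted P = 0.025) fell. Rrad, an inhibitor of L-type current, rose (1.42, adjusted P = 0.0046), as did Bin1, which shapes the membrane folds that hold the channel (1.01, adjusted P = 0.011). Hcn4, a pacemaker channel, rose, with 8.43, 9.06 and 8.53 in the allografts against 6.46, 6.42 and 6.31 in the controls (2.28, SE 0.19, adjusted P = 0.0018). Of 6 sodium channel genes, Scn10a, known mainly from sensory neurons (2.85, adjusted P = 0.0090), and Scn4a, the skeletal muscle channel (0.98, adjusted P = 0.020), rose and the subunit Scn2b was at least 2.14-fold lower.

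Among genes of junctions and the intercalated disc, 7 of 13 were lower and 3 higher (median -0.75), beside 15.1% and 15.2% of all genes. The desmosomal plaque protein Dsp fell by 2.22 on the log2 scale (adjusted P = 0.024), the cadherin Cdh2 by 1.53 (adjusted P = 0.028) and the desmosomal cadherin Dsg2 by 1.51 (adjusted P = 0.015). Connexins did not share a direction, since Gja4 (1.69, adjusted P = 0.0064) and Gjb1 (1.07, adjusted P = 0.026) rose while Gja1 had a negative difference. Of 19 genes of calcium and adrenergic signalling, 2 fell and 0 rose, a share below the 15.1% of all genes called lower, and these were the adenylyl cyclase Adcy5 (-1.90, adjusted P = 0.0023) and the kinase subunit Camk2b (-1.21, adjusted P = 0.014). Of 9 genes of calcium and sodium extrusion, 0 fell and 1 rose, the mitochondrial sodium-calcium exchanger Slc8b1 (1.61, adjusted P = 0.0045). These counts stand beside 15.1% of all genes lower and 15.2% higher.

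**Figure D4:**
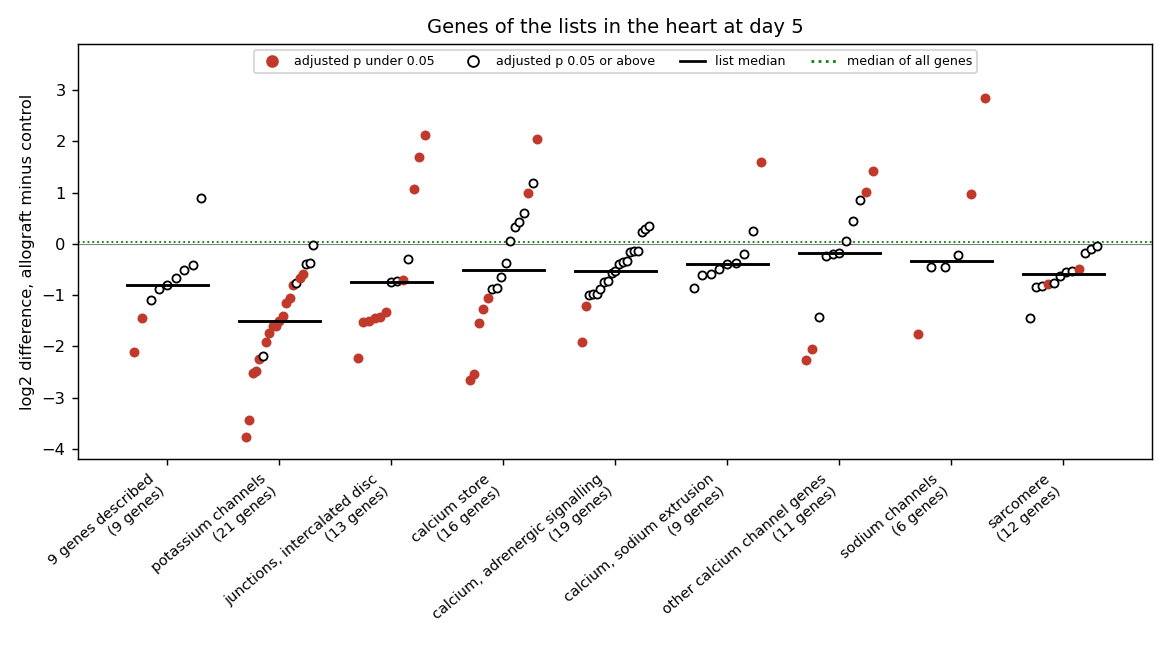
Log2 difference (POD5 cardiac allograft minus control) of the 9 genes described and of every tested gene of the sarcomere list and 7 of the 8 pathway lists, by its brightest probe; red points have an adjusted P under 0.05, black lines are list medians and the dotted line is the median of all genes (0.03). The potassium channels lie lowest, with 16 of 21 called lower, and the 9 genes described have a median of -0.80.

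The liver served as the background organ. Ryr2, Casq2, Cacna1c and Kcnj2 were above background on no liver array, and Pln on 1 control and 1 POD8 array. Atp2a2, Kcnq1 and Slc8a1 were above background on all 9 liver arrays and Gja1 on 8. With all 15 arrays on one scale, the heart groups held the 2 highest levels for all 9 genes. Atp2a2, for example, averaged 15.5 (SD 0.15) in heart controls, 14.4 (SD 0.94) in heart allografts and 9.06 (SD 0.31), 8.91 (SD 0.46) and 8.65 (SD 0.33) in the POD8, control and POD5 livers. The heart groups did not overlap each other or the liver groups, and the neighbouring liver groups overlapped. On this scale the heart groups overlapped each other for Slc8a1 and Cacna1c, and no heart array overlapped a liver array for any of the 9 genes.

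**Figure D5:**
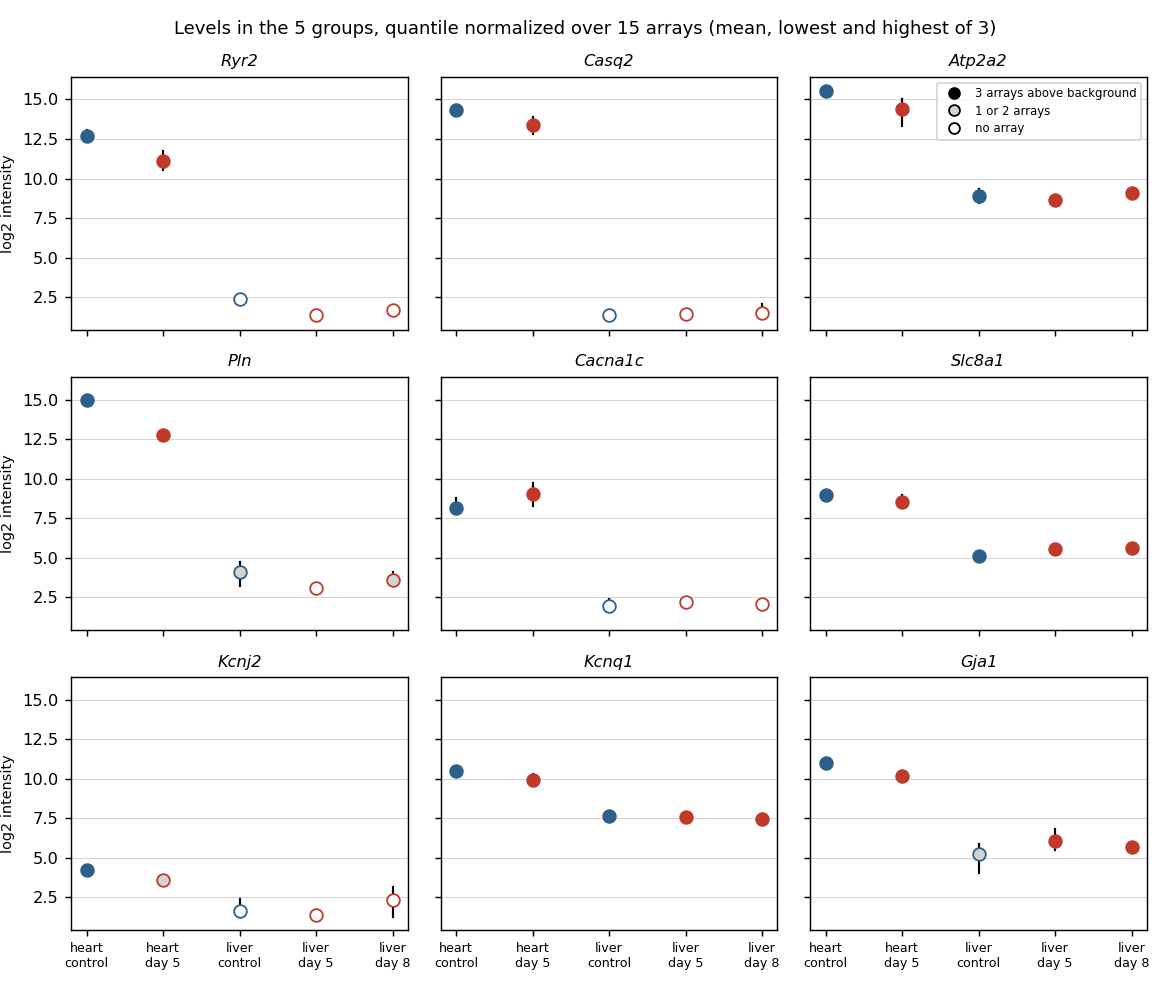
Log2 intensity of the 9 genes in the 5 groups, quantile normalized over 15 arrays; points are means of 3 arrays, lines run from the lowest to the highest array, and open points mark groups with no array well above background. Ryr2, Casq2, Cacna1c and Kcnj2 are open in the liver, and Atp2a2, Kcnq1 and Slc8a1 are filled in all 5 groups.

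None of the 9 genes was called in the hepatic allografts at POD5 or at POD8 by limma, and the unadjusted P was under 0.05 for 1 and 2 of them. Over all probes, the unadjusted P was under 0.05 for 8348 of 41155 at POD5 and 9002 of 41157 at POD8. In the heart it was under 0.05 for 6 of the 9 genes and for 18062 of 41025 probes. The SFC statistic and the methods' test with Benjamini-Hochberg adjustment called 0 at either day, but each called few genes of any kind. SFC called 36 of all genes lower and 263 higher at POD5, and 39 and 292 at POD8. The methods' test called 45 and 141 at POD5, and 177 and 490 at POD8. By limma, 1.05% of all genes were called lower and 2.74% higher at POD5, and 1.84% and 3.7% at POD8. Both days share the same controls. Slc8a1 read 4.86, 4.86 and 4.60 at POD5 and 4.73, 4.73 and 4.94 at POD8, against 4.10, 4.64 and 4.24 in the controls as scaled with POD5. At POD8 all 3 grafts lay above the controls, with a log2 difference of 0.50 (SE 0.18, adjusted P = 0.19), and at POD5 1 graft lay within them (0.44, SE 0.19, adjusted P = 0.27). Gja1 differed by 0.82 (SE 0.59) and 0.44 (SE 0.53), with control 1 not above background. Atp2a2 differed by -0.26 (SE 0.30) and 0.16 (SE 0.30) and Kcnq1 by -0.06 (SE 0.20) and -0.17 (SE 0.24).

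The POD5 difference in the heart was then set against that in the liver in 1 limma model of all 15 arrays. In each organ, the POD5 difference cannot be told apart from a slide or scan effect. None of the 9 genes passed, where 18.1% of 32171 genes did, and 4 of the 9 had an unadjusted P under 0.05. The unadjusted count over all genes was not taken for this model. Slc8a1 came nearest, with -0.42 in the heart and 0.46 in the liver, a difference of -0.89 (SE 0.30, adjusted P = 0.057). It passed without heart allograft 1 (-1.11, adjusted P = 0.016) or without liver control 2 (-1.05, adjusted P = 0.031), and in the latter case Pln passed too. For Gja1 the heart gave -0.83 and the liver 0.85, a difference of -1.68 (SE 0.65, adjusted P = 0.094). For Pln the heart gave -2.19, and the liver value was below background on 5 of 6 arrays.

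The 5 genes with the profile most like the mean of the 9 over 15 arrays were ENSMUST00000097692, BC043140, Ppm1e, NAP038998-1 and Ldhb, at a root mean square distance of 0.23 to 0.31 on the log2 scale, among 20525 genes above background in all heart controls. Ldhb encodes the heart form of lactate dehydrogenase. Each profile was centred on its own mean, and the heart and liver levels carry most of the likeness.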

How the data were processed

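Total RNA of 15 samples was hybridised to 1-colour Agilent arrays. The deposited value of a spot is a linear processed intensity, from which Feature Extraction 10.5.1.1 had subtracted local background, and the deposited values are not normalized between arrays (the authors' methods name quantile normalization as a later step). Here log2 was taken, 47 to 113 spots per array with an outlier mark were left out (0 spots were saturated), replicate spots were averaged per probe, and each comparison's arrays were quantile normalized. Probes were named by matching transcript accessions to RefSeq (GRCm38.p6; 26690 of 41174 probes matched), which also gave positions, while the array design carries the older build mm9. Other probes kept the name in the files. A probe was well above background where the software flagged a share of 0.5 or more of its spots that way. For arrays, signal over background stands in for depth, and precision is limited by their number.

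The software was R 4.3.3 with data.table (version 1.17.8). Two-sided tests of groups came from limma 3.58.1, with Benjamini-Hochberg adjustment over all probes at 0.05. A gene was represented by its brightest probe, and a fold against a group wholly below background is given as a bound. Named were all 9 members, the 3 called genes of each list with the largest difference in each direction, and the 5 most similar profiles. The members and lists were chosen with earlier results of these data known. Mrln, Atp2b4, Scn4b, Cd68 and Cps1 were not analysed here. Some genes of the lists are not reported here, also where the rule would name them. The test was run on simulated data beforehand. Alternatives were other scalings (75th percentile, 15-array quantile, sarcomere genes), normexp with offset 50 on the deposited median intensities, a filter on dim probes, outliers kept, 1 fit of 5 groups, a trended prior, replicate and slide blocks, probe means, the methods' test, SFC with a bin of 1000 probes, and each array left out. Plots used Python 3.11.15 with matplotlib 3.10.9.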

Additional observations from a re-analysis of the deposited data

How the results depend on the processing

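Of the heart members, Pln was called lower under 18 of 19 alternatives (all but SFC) and Ryr2 under 11, and 7 of the 9 genes kept the sign of their difference under all 19. The count of 2 members called in the heart became 5 with 75th percentile scaling, 4 after normexp, 5 with dim probes left out, 4 in 1 fit of 5 groups, 1 with the mean of a gene's probes, 1 by the methods' t-test with Benjamini-Hochberg adjustment (5 unadjusted) and 0 by SFC with Bonferroni adjustment. Of all genes, the main fit called 4863 lower and 4879 higher. In the order above, these settings called 4109, 4987, 5051, 4753, 4578 and 3678 (6040 unadjusted) lower, and SFC called 83. Higher calls were 13073, 4574, 4588, 4389, 4706 and 4302 (6769 unadjusted), and 113 by SFC. The member count ran from 1 (without allograft 3 or any 1 control) to 7 (without allograft 1) as single arrays were left out. Over all genes, these fits called 2696 to 6382 lower. Kcnj2 (0.15) and Slc8a1 (0.021) reversed when centred on the sarcomere genes, which moved the median of all probes to 0.92, above both. The 16 potassium channel genes lower became 0 by SFC and 10 to 17 with an array left out, and the 45 pathway genes called became 0 by SFC and 30 to 57 with an array left out.

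Same-numbered allografts and controls did not deviate together in the heart (correlations -0.07 to 0.05), and the labels do not pair them. With the replicate number as a block, 1 heart member (Pln), 10 potassium channel genes and 32 pathway genes were called. Over all genes, 2935 were then called lower and 3359 higher.

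In the liver at POD5, 1 member (Ryr2, below background) was called with quantile normalization over 15 arrays, 1 in the fit of 5 groups and 1 by the methods' t-test unadjusted. Over all genes, these settings called 262 lower and 801 higher, 2308 and 2539, and 3183 and 2660. At POD8, 1 (Casq2, below background) was called with 75th percentile scaling and 2 unadjusted. Over all genes, 9013 were called lower and 1765 higher with that scaling, and 3674 and 2671 unadjusted. Without single arrays both counts stayed at 0. At POD5 these fits called 0 to 177 of all genes lower and 3 to 731 higher. At POD8 they called 16 to 879 lower and 267 to 1504 higher. Few genes of any kind were called in these fits, so the counts of 0 cannot show that the result is stable. Kcnq1 at POD5 reversed after normexp (0.070) and ranged from -0.26 to 0.056 without single arrays. At POD8, Atp2a2 ranged from -0.083 to 0.39 and Gja1 from -0.15 to 0.74. The count of members that differed between the organs was 1 with 75th percentile scaling, 4 after normexp and 0 to 2 without single arrays. Calls over all genes were not counted for these settings of the organ comparison. Why these settings differ was not tested. With 3 arrays a group, the 95% intervals in the heart were wide, from -0.95 to -0.081 for Kcnq1 and from -2.27 to 0.068 for Atp2a2 on the log2 scale, and a P above the threshold does not show that a gene was unchanged.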
